A study of Drosophila melanogaster with 22 samples.

Results

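The mitochondrial rRNA positions are all positions on the minus strand of the mitochondrial genome of Drosophila melanogaster in a range that spans both rRNA genes, 2301 in number. mt:lrRNA, the RNA of the large mitoribosomal subunit (FBgn0013686), lies at mitochondrion_genome:12735-14058 and is 1324 nt long. mt:srRNA, the RNA of the small subunit (FBgn0013688), lies at mitochondrion_genome:14131-14916 and is 786 nt long. The coordinates of both genes are those of RefSeq's release 6, the release that the study's genome annotation belongs to. Both RNAs are read from the minus strand, so that their 5′ ends are at the higher coordinate. Of the 2301 positions, 1782 were listed in the files of at least 1 pair of libraries and 1048 in all 11 pairs, while a pair listed 1288 to 1497 of them, and 4183502 to 6165971 positions of all references together.

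Each sample was polyadenylated RNA from 100 heads of virgin females aged 1 day, reared at a 12 h light and dark cycle, to which a spike-in RNA with 1 pseudouridine (Psi) was added. Each sample was then split into equal portions, one treated with CMC and one mock-treated, and the libraries made from them are called a pair. Exp 1 holds 3 pairs of isogenic w1118, the control strain. Exp 2 holds 4 pairs of w1118 and as many of RluA-2, flies homozygous for a deletion of the gene RluA-2, so that there were 22 libraries. The RluA-2 flies carry 1 deletion allele, so that its effect cannot be told apart from other differences between the strains. Exp 1 and Exp 2 were separate experiments, and RluA-2 flies were studied only in Exp 2. Nothing in the sources says whether replicates came from separate cultures, so that the tests measure the spread between these samples.

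CMC stays bound to Psi after alkali and stops reverse transcription 1 base 3′ of it, while the same agent is removed from unmodified U and G. The termination ratio is the share of the inserts covering a position that end there, and the termination fold change is the log2 of the ratio in the CMC library over that in its mock library. In the text a position is named by the base that the stop points to, so that U12929 is the U at coordinate 12929 and the stop lies 1 base 3′ of it. A position named "site" has no base known here. Bases were known for 722 positions, 680 of lrRNA and 42 of srRNA, all in 125 flanks of 21 bases around Us that the study listed.

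Mitoribosomes translate the few proteins that the mitochondrial genome encodes, all of them subunits of the respiratory chain and the ATP synthase. In bacteria and in human mitochondria the large-subunit rRNA carries Psi in the peptidyl transferase loop, where peptide bonds are formed, and in bacteria also in the helix that bridges to the small subunit. RluA-2 belongs to the RluA family of stand-alone pseudouridine synthases, whose bacterial members modify large-subunit rRNA and tRNA. The rRNAs of mitochondria carry short 3′ A tails, so that a part of them is recovered on oligo(dT).

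The sequences at which the results turn are given 5′ to 3′ on the minus strand, from the flanks that the study lists, with T for U. The first 3 were chosen as stretches with a known role, and the others because they hold the called positions with the highest fold changes or those of srRNA. Capitals mark the U of CTCGATG in the peptidyl transferase loop, the Us of the loop of the bridge helix, and the Us within 6 bases 5′ of AGTACGA, the sarcin-ricin loop, where translation factors bind. In the other 4 they mark called positions. Each of these 3 motifs, that of the bridge helix being the loop with the stem bases that enclose it, occurred 1 time in the known bases of the minus strand, the only strand searched.
peptidyl transferase loop, mitochondrion_genome:12917-12944: agattgcgacctcgaTgttggattaaga
bridge helix loop, mitochondrion_genome:13299-13322: ggccgcagtaTTTTgactgtgcaa
beside the sarcin-ricin loop, mitochondrion_genome:12786-12809: aattatgaTaTTTTagtacgaaag
U12839, mitochondrion_genome:12829-12849: ttcaaaccggTgtaagccagg
U12883, mitochondrion_genome:12873-12893: aaattttaagTctgttcgact
U13197 to U13203, mitochondrion_genome:13187-13213: gaattttattTTTTAGTcaaaaagcta
srRNA, U14361 and A14362, mitochondrion_genome:14352-14371: ttaataaaaATttatatcag

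Coverage was far higher on lrRNA than on srRNA and was uneven along both. The median coverage of the listed lrRNA positions in a library was 6409 to 19099 in CMC and 12891 to 53364.5 in mock. On srRNA the medians were 411.5 to 708 in CMC and 446.5 to 1721 in mock, so that no srRNA library reached the lowest lrRNA library of its treatment. The tRNA genes on either side, trnL2 and trnV, had at most 5 listed positions in a pair and no listed position with a coverage of 100.

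Along lrRNA, coverage was highest in 2 stretches, nt 701 to 800 and nt 1101 to 1300 from the 5′ end, except that the mock library of replicate 2 of Exp 1 had more in nt 601 to 700 (median 93719) than in nt 1101 to 1200 (75997). Over the positions listed in all 11 pairs, the mock median of nt 701 to 800 was 121060 to 198942 in Exp 1, 76388.5 to 216514 in w1118 of Exp 2 and 117856 to 190460 in RluA-2. In nt 901 to 1000, between these stretches, the mock medians were 25356 to 42984, 6469 to 33805 and 11546 to 33063. In nt 1 to 100, at the 5′ end, they were 5037.5 to 23192.5, 679.5 to 3957 and 1439.5 to 4545.5. In the mock libraries of that window Exp 1 lay above both groups of Exp 2 without overlap. The coverage of CMC libraries relative to mock changed along the RNA. In nt 1 to 100 it was 0.10 times that of mock in Exp 1, 0.25 times in w1118 of Exp 2 and 0.18 times in RluA-2, as the mean over pairs, and in nt 701 to 800 it was 0.34, 0.72 and 0.86 times, where single pairs of Exp 2 reached 1.11 in w1118 and 1.26 in RluA-2. These ratios are not adjusted for depth. The former pair had 16118398 gene counts in CMC and 12035142 in mock, and the latter 21412913 and 12174443. Differences in the ratio between pairs and groups thus include depth.

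**Figure D1:**
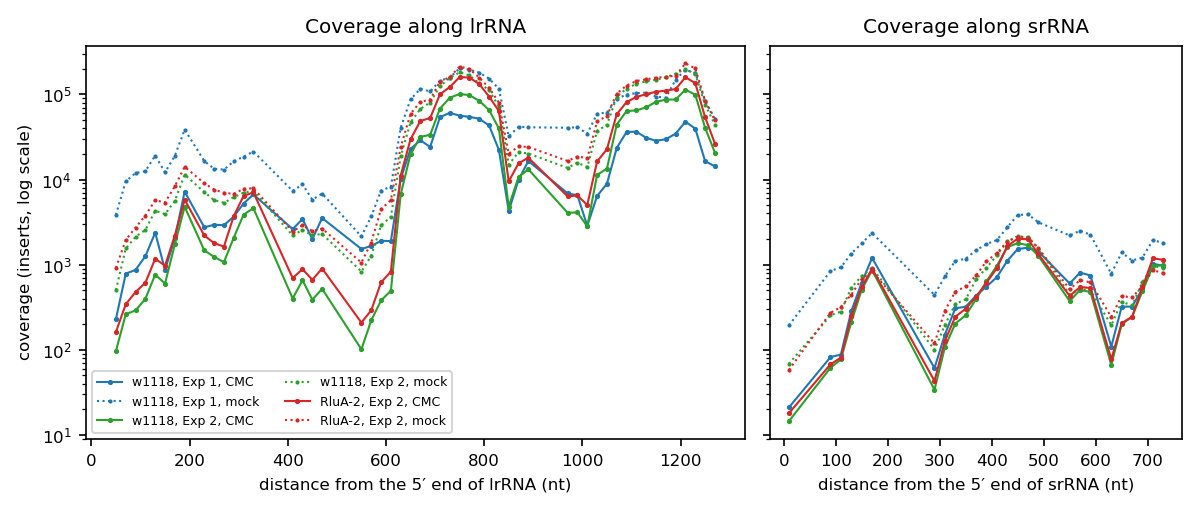
Coverage (inserts, log scale) along lrRNA and srRNA, by distance from the 5′ end in nt, for positions listed in all 11 pairs. Each point is the median over positions and pairs in a bin, solid lines are CMC and dotted lines mock libraries, and colours are the 3 groups. Coverage of lrRNA is highest in nt 701 to 800 and nt 1101 to 1300, and no position of srRNA has a coverage above 4380 in any library.

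The level of the 5′ part of lrRNA (nt 1 to 600) relative to the 3′ part (past nt 1000) was compared per pair, as the log2 of the ratio of median coverages. In CMC it was -3.98 ± 0.63 in Exp 1 (SD, n = 3), -6.57 ± 0.94 in w1118 of Exp 2 (n = 4) and -6.51 ± 0.18 in RluA-2 (n = 4). In mock it was -3.11 ± 1.39, -5.11 ± 0.27 and -4.68 ± 0.46. Exp 1 thus kept more of the 5′ part than Exp 2, in all pairs for both treatments, and the exact permutation test gave its smallest possible p with 3 against 4 pairs, 0.0571 in each case (two-sided, adjusted 0.126 over 11 measures). RluA-2 and w1118 of Exp 2 differed by 0.06 in CMC (exact permutation p = 0.943) and by 0.43 in mock (p = 0.171, adjusted 0.471), which are within the spread of the pairs.

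Several facts of the whole series bear on these values. At the Psi of the spike-in the CMC termination ratio was 41.1 to 50.2% and the mock ratio 0.359 to 0.662% in the 11 pairs, a fold change of 6.25 to 6.90. Terminations in the span of RluA-2 numbered 99 to 159 in the CMC libraries of w1118 and 12 to 40 in those of RluA-2, so that the genotype labels of all CMC libraries held. The mock libraries were not checked in this way. Fly head markers were compared between genotypes by CMC terminations in gene spans (edgeR, log2, RluA-2 over w1118). None of the 3 photoreceptor genes, 3 neuron genes, 3 yolk protein genes or 1 flight muscle gene tested passed an adjusted p of 0.05. The glial gene repo was 0.17 higher (adjusted p = 0.0496). Arr2 of the photoreceptor genes had -0.20 (adjusted p = 0.0602). Yp1, Yp2 and Yp3 had 0.22, 0.18 and 0.17 (adjusted p = 0.150, 0.157 and 0.235). For these yolk protein genes the study reports a trend of upregulation in RluA-2, from another measure, the gene counts of mock libraries. Of the egg and ovary genes 1 of 3 passed the filter on low values, vas, with an adjusted p of 0.931. Neither of the 2 testis genes passed that filter. Total gene counts ran from 12035142 to 30701799 per library.

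CMC raised the termination ratio at most lrRNA positions listed with a coverage of 1000, and among those with a known base Us and Gs were above As and Cs. Over positions with a coverage of 1000 in all libraries, the median fold change of the 181 known Us was 1.23 ± 0.33 in Exp 1 (SD, n = 3), 0.97 ± 0.12 in w1118 of Exp 2 (n = 4) and 0.99 ± 0.07 in RluA-2 (n = 4). The 89 Gs had 0.93 ± 0.19, 0.66 ± 0.07 and 0.68 ± 0.12. The 169 As had 0.41 ± 0.08, 0.45 ± 0.07 and 0.48 ± 0.09. The 55 Cs had 0.27 ± 0.24, 0.09 ± 0.11 and 0.22 ± 0.11. These medians rest in part on how bases came to be known, since each flank centres on a U that the study listed. With a coverage of 1000 required only in libraries that listed the position, 108 Us lay at the centre of a flank and 83 Us did not. Their medians over the 7 w1118 pairs were 1.10 and 0.98, so that Us that the study did not list lay above the As and Cs too. In level they differed more, with a median CMC termination ratio of 4.95% at the centres and 0.665% at the other Us, and mock ratios of 2.19% and 0.238%. By the same filter, the 218 lrRNA positions of unknown base had a median fold change of 1.45 over the 7 w1118 pairs, above that of the known Us. Their CMC ratio was 0.0363% and their mock ratio 0.0143%. A pair lists only positions with at least 1 CMC termination, which bears on fold changes at such low ratios.

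None of these per-base medians differed between the genotypes beyond the spread of the pairs (exact permutation tests, smallest p = 0.171 among the fold changes of the 4 bases). The median mock ratio of the Us was 1.09% in w1118 of Exp 2 and 0.987% in RluA-2, with no overlap between the groups, and its exact permutation p of 0.0286, the smallest that 4 against 4 pairs allow, was 0.314 after adjustment over 11 measures. The median CMC ratio of the Us was 3.56 ± 0.71% in Exp 1, 2.61 ± 0.29% in w1118 of Exp 2 and 2.27 ± 0.18% in RluA-2.

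With the spread between pairs as the error (limma, Benjamini-Hochberg over 513007 positions of all references), 592 of 1028 mitochondrial rRNA positions had a higher ratio in CMC and 11 a lower one. Over all positions tested, 50.9% were higher and 2.6% lower, so that the count of 592 stood near the background at this coverage filter. With each pair centred on its own median over all positions, 171 were higher and 180 lower, beside a background of 19% and 18.1%. Among the positions tested, a rise with CMC was thus common over all references. Each of them had at least 1 CMC termination in every pair, while no mock termination was required, which bears on this balance. With deeper filters the share of higher positions stood further above the background. At a mean coverage of at least 1000, 518 of 775 were higher and 11 lower, beside 63113 and 7875 of 126772 over all. Among positions with at least 20 terminations and a coverage of 1000, a setting chosen after seeing the data, 448 of 599 were higher and 16 lower, beside 59.4% and 9.63% over all.

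The fold change also depended on the place in lrRNA. Positions entered these medians with a coverage of 1000 in every library that listed them, also where some pairs did not list them. In nt 1201 to 1300, the 3′ end of the well-covered part, the median over 92 such positions was 1.96 in w1118 (1.90 in Exp 2) and 1.74 in RluA-2. In nt 1101 to 1200, next to it, the median of 100 positions was 0.41 in both genotypes. In nt 601 to 800 the medians of the 2 windows were 0.49 and 0.65 in w1118. Other windows were high too, with 1.27 in nt 201 to 300, 1.19 in nt 301 to 400, 1.15 in nt 801 to 900 and 1.38 in nt 901 to 1000, and 1.78 over the 9 positions of nt 401 to 500. A fold change is therefore read beside the median of its window where that is given.

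**Figure D2:**
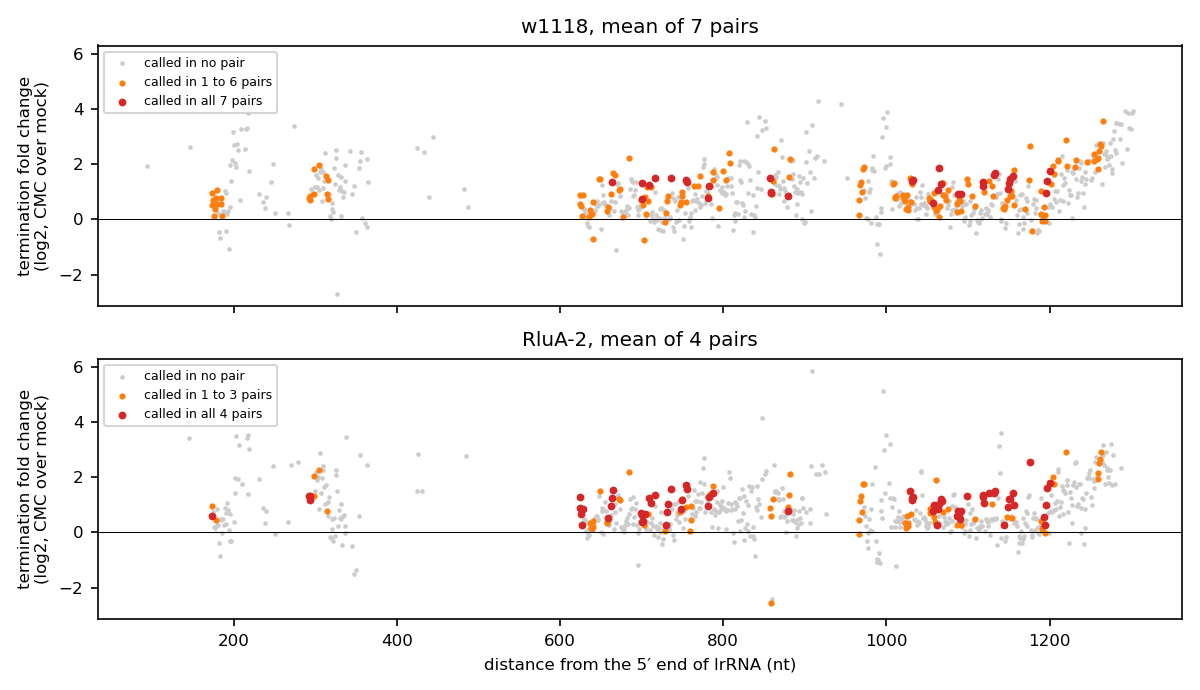
Mean termination fold change (log2, CMC over mock) of each lrRNA position with a coverage of 1000 in every library that lists it. Positions are given by distance from the 5′ end in nt, in w1118 (7 pairs, top) and RluA-2 (4 pairs, bottom). Colours give the number of pairs in which the test of 2 proportions called the position. The median is 0.41 in nt 1101 to 1200 and 1.96 in nt 1201 to 1300 in w1118.

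Positions were called by a one-sided test of 2 proportions in each pair, at an adjusted p under 0.05 over the whole table. A position was tested where the listed count of CMC reads ending was 5 or more and 5 or more read on. The CMC ratio also had to be above the mock ratio. Positions tested in this way thus had a higher ratio in CMC already, and the adjustment left out the others. A position was counted when 1 or more w1118 pairs of Exp 1 and of Exp 2 called it. By this rule 167 of 1041 tested positions were called, 164 of lrRNA and 3 of srRNA. The share of 16% stands beside a background of 0.494% over all 575602 tested positions and of 31.3% over cytoplasmic rRNA, where coverage is also high. This test takes no spread between pairs into account, and its mock term, 1 over the coverage, is larger than the counting error at low ratios. A position of high coverage is called at a smaller difference. After thinning to a coverage of 1000 at each position, 12 of the 167 remained. Positions below that coverage in a library were left out there. At this coverage the mock term is large, so that small differences in ratio cannot be called. The 12 thus do not show how many calls rest on depth. With the usual pooled variance 722 were called, and with a fold change above 1 also required, 75.

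Called positions had moderate fold changes, with a median of 0.92, and 13 were above 2, up to 2.86. Their median termination ratio was 5.82% in CMC and 2.82% in mock. Per pair, 116, 255 and 161 lrRNA positions were called in Exp 1, where 0.527, 1.13 and 0.864% of all tested positions were. In w1118 of Exp 2 the counts were 158, 119, 67 and 108 beside 0.537, 0.305, 0.28 and 0.347%. In RluA-2 they were 121, 90, 148 and 99 beside 0.446, 0.22, 0.324 and 0.258%. On srRNA a pair had 1 to 25 calls. Of the 167, 33 were called in all 7 w1118 pairs, 31 of them Us and 2 As, and 30 in all 11 pairs. By base, 120 of the 167 were Us, 33 As, 9 Gs and 1 C, while 4 had an unknown base. Since bases are known only around Us that the study listed, the number of Us is set by that list, and all 118 called Us of lrRNA were at the centre of a flank. The other known bases were not listed themselves, but all lie in the flanks of listed Us and so close to called positions. Of these, 32 of the 199 tested As of lrRNA were called (16.1%), 9 of 92 Gs (9.78%) and 1 of 39 Cs (2.56%). Of the 195 tested lrRNA positions of unknown base, 4 were called (2.05%).

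The called positions lay close together. They formed 66 groups of adjacent positions, 29 of which held 1 position, and the other 37 held 138 positions, the longest 9. Of the 33 called As of both RNAs, 25 had a U as neighbour on at least 1 side (75.8%), against 53.0% of all 215 tested As. Both shares are of As inside the flanks, and the choice of flanks bears on them. The median fold change was 1.23 for single Us, 1.30 in runs of 2, 0.89 in runs of 3 and 0.87 in longer runs, while the called share of the tested Us was 47.1, 47.5, 51.5 and 63.1% in the same order.

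At the U of the peptidyl transferase loop, U12929 (nt 1130), termination rose with CMC in every pair. The CMC ratios were 2.53, 2.27 and 2.71% in Exp 1, 2.39, 2.29, 1.98 and 2.36% in w1118 of Exp 2, and 2.25, 1.98, 2.27 and 2.03% in RluA-2. The mock ratios were 0.929, 1.06 and 0.823%, then 1.16, 1.06, 1.09 and 1.04%, and in RluA-2 1.07, 0.974, 1.12 and 1.01%. CMC and mock libraries did not overlap, and the RluA-2 fold changes of 1.00 to 1.07 lay within the w1118 range of 0.86 to 1.72. A mean given for w1118 without an experiment is over both experiments, while RluA-2 was studied in Exp 2 alone. The mean fold change was 1.21 ± 0.28 in w1118 (SD, n = 7; limma adjusted p = 0.000131), 1.05 ± 0.14 in w1118 of Exp 2 and 1.03 ± 0.03 in RluA-2 (n = 4), and the position was called in 5 of 7 and 3 of 4 pairs. These values compare with a fold change of over 6 and a CMC ratio of over 41% at the Psi of the spike-in, and with 0.41 for all bases of the window. The known Us of lrRNA had medians of 1.23 in Exp 1, 0.97 in w1118 of Exp 2 and 0.99 in RluA-2, so that U12929 was near a typical U.

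Nearby Us of the same loop had higher values. U12926 (nt 1133) had a mean fold change of 1.66 ± 0.19 in w1118 (1.55 ± 0.15 in Exp 2) and 1.49 ± 0.12 in RluA-2, and U12927 (nt 1132) had 1.60 ± 0.23 and 1.42 ± 0.08. Both were called in all 11 pairs. At U12926 the CMC ratio was 2.92 ± 0.26% and the mock ratio 0.925 ± 0.089% in w1118. U12933 (nt 1126), on the other side of U12929, had 1.38 ± 0.14 and 1.43 ± 0.12. U12929 was thus not the position of this stretch with the most termination, and it did not stand apart from its neighbours.

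In the loop of the bridge helix, the 4 Us U13309 to U13312 (nt 750 to 747) had lower fold changes. Their means in w1118 were 0.99 ± 0.36, 0.83 ± 0.42, 0.62 ± 0.31 and 0.53 ± 0.24 (SD, n = 7), with limma adjusted p values from 0.001 to 0.022, beside a median of 0.65 in their window. Within Exp 2 the means were 1.03 ± 0.16, 1.05 ± 0.08, 0.77 ± 0.09 and 0.51 ± 0.21 in w1118, and 1.20 ± 0.21, 1.18 ± 0.12, 0.86 ± 0.11 and 0.76 ± 0.16 in RluA-2 (n = 4 each). At U13310 the CMC ratio was 2.36, 3.94 and 3.37% in Exp 1, 4.50, 4.47, 3.56 and 3.66% in w1118 of Exp 2, and 3.90, 4.02, 4.11 and 4.00% in RluA-2. The first pair of Exp 1 had a mock ratio of 2.33% there, which left it with a fold change of 0.02, and Exp 1 was thus more spread at this position than Exp 2.

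The Us beside the sarcin-ricin loop, U12796 to U12799 (nt 1263 to 1260), had some of the highest fold changes, at levels that differed between the experiments. At U12796 the CMC ratio was 4.53, 11.04 and 11.1% in Exp 1, 4.01, 4.10, 0.940 and 1.88% in w1118 of Exp 2, and 2.47, 1.55, 2.53 and 1.91% in RluA-2. The mock ratio was 1.503, 1.78 and 1.79% in Exp 1, 0.734, 0.436, 0.166 and 0.172% in w1118 of Exp 2, and 0.192, 0.172, 0.467 and 0.360% in RluA-2. Exp 1 was above Exp 2 in both treatments without overlap, while the fold changes of 1.59 to 2.63 in Exp 1 and 2.45 to 3.45 in w1118 of Exp 2 overlapped. The mean over w1118 was 2.64 ± 0.60 for U12796, 2.74 ± 0.72 for U12797, 2.48 ± 0.56 for U12798 and 2.21 ± 0.59 for U12799, and 2.17 to 2.92 in RluA-2. The window of nt 1201 to 1300 has a median of 1.96, so that these Us stood above it by less than 1. The next U on the 5′ side, U12801 (nt 1258), had 2.19 ± 0.63 and was called in 2 of 7 pairs. A12800, the A between them, had 1.82 ± 0.66 and was called in 6.

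3 single Us of other stretches had high fold changes at low ratios. At U12839 (nt 1220) the mean fold change was 2.86 ± 0.32 in w1118 (2.69 ± 0.13 in Exp 2) and 2.92 ± 0.33 in RluA-2, the former being the highest w1118 mean of all called positions, beside 1.96 for its window, with a CMC ratio of 1.23 ± 0.53% and a mock ratio of 0.161 ± 0.042% in w1118. U12883 (nt 1176) lay in a window with a median of 0.41 and had 2.65 ± 0.45 and 2.56 ± 0.11, the highest value in w1118 of that window. Its CMC ratio was 1.66 to 2.42% in Exp 1, 1.46 to 1.82% in w1118 of Exp 2 and 1.59 to 1.82% in RluA-2, while the mock ratio was 0.215 to 0.355% in all 11 pairs. U13374 (nt 685) had 2.23 ± 0.31 and 2.20 ± 0.18, again the highest of its window, at a CMC ratio of 1.05 to 1.84%. For U12883 and U13374 the place in lrRNA was thus not one where fold changes are high at all positions.

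A run of 7 called positions, U13197 to U13203, joined high fold changes and high ratios. U13197 (nt 862), at its 3′ end, had a fold change of 2.56 ± 0.58 in w1118 (2.23 ± 0.44 in Exp 2) and 2.43 ± 0.52 in RluA-2 with a CMC ratio of 2.39 ± 1.12%, in a window with a median of 1.15. U13201 (nt 858) had a lower fold change of 0.94 ± 0.42 with a CMC ratio of 43.03 ± 8.68% and a mock ratio of 22.5 ± 4.6%, so that reverse transcription stopped there often without CMC. U13202 (nt 857), called in all 7 w1118 pairs, had CMC ratios of 19.6, 43.4 and 29.1% in Exp 1, 28.3, 29.0, 13.1 and 16.9% in w1118 of Exp 2, and 6.98, 16.8, 9.86 and 18.1% in RluA-2. Its fold change was 1.49 ± 0.68 in w1118, 1.33 ± 0.35 in w1118 of Exp 2 alone and 0.88 ± 0.62 in RluA-2, and the groups overlapped (limma difference -0.40 ± 0.44, SE, adjusted p = 0.978).

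The other positions that were called in all 7 w1118 pairs and had the highest fold changes were U12858, U12904, U12908, U13305, U13323, U13343 and U12995. Their mean fold changes were 1.76 ± 0.28 at U12858 (below the 1.96 of its window), 1.57 ± 0.29 at U12904, 1.44 ± 0.32 at U12908, 1.41 ± 0.44 at U13305, 1.497 ± 0.322 at U13323 and 1.48 ± 0.41 at U13343. U12995 had 1.87 ± 1.69, which rests on a single mock library described below. In RluA-2 all 7 were between 1.02 and 1.81 and were called in all 4 pairs.

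**Figure D3:**
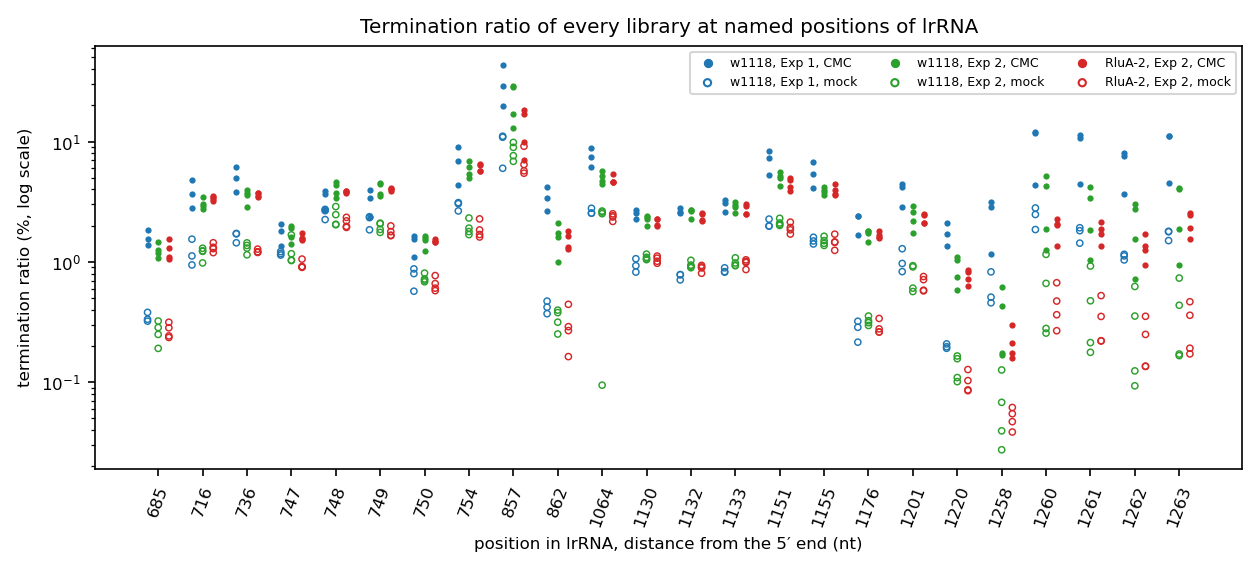
Termination ratio (%, log scale) of every library at named positions of lrRNA, given by distance from the 5′ end in nt. Filled points are CMC and open points mock libraries, coloured by group. At nt 1130, in the peptidyl transferase loop, CMC libraries lie at 1.98 to 2.71% and mock libraries at 0.823 to 1.16%, and at nt 1263, beside the sarcin-ricin loop, Exp 1 lies above Exp 2 in both treatments.

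Some positions stopped reverse transcription whether or not CMC was used. The 5 highest mock ratios over the 11 pairs were 60.0% at U13093, 50.2% at A13094, 42.5% at A13035, 39.3% at site 13652 and 36.9% at site 13651. At U13093 (nt 966) the CMC ratio was 54.7 to 75.2% and the mock ratio 52.1 to 70.9% in w1118, which overlap, and the mean fold change was 0.15 ± 0.27. U13093 and A13094 lie in the thinly covered part of lrRNA between the 2 stretches of high coverage. Neither they nor A13035, site 13651 and site 13652 had a fold change that differed from 0 in limma, with adjusted p values from 0.133 to 0.565. A13035 passed with a variance trend on coverage (adjusted p = 0.0395) and with at least 20 terminations and a coverage of 1000 (adjusted p = 0.028), at a mean of 0.36 ± 0.32. The test of 2 proportions called each of these 5 positions in 1 to 6 w1118 pairs.

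On srRNA, 3 positions were called in both experiments. U14361 (nt 556) had CMC ratios of 41.2, 46.8 and 42.6% in Exp 1, 54.4, 48.0, 45.8 and 43.4% in w1118 of Exp 2, and 50.6, 48.6, 45.9 and 44.2% in RluA-2. Its mock ratios were 37.9, 28.8 and 39.5%, then 36.1, 42.6, 20.8 and 28.5%, and 24.5, 26.8, 26.2 and 30.0%. CMC and mock libraries did not overlap in either experiment. The mean fold change was 0.49 ± 0.38 in w1118, 0.63 ± 0.39 in w1118 of Exp 2 alone and 0.82 ± 0.20 in RluA-2. A14362 (nt 555), next to it, had 0.78 ± 0.50 in w1118, 1.12 ± 0.29 in w1118 of Exp 2 alone and 1.43 ± 0.37 in RluA-2, with a CMC ratio of 78.3 ± 8.8%. U14758 (nt 159) had 1.31 ± 0.33 and 1.52 ± 0.67, with a CMC ratio of 13.9 ± 3.4% and a mock ratio of 5.56 ± 1.15%.

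The highest fold changes of srRNA positions called in any pair were 3.09 ± 1.06 at site 14745, 2.39 ± 1.49 at site 14286, 2.20 ± 0.62 at U14748, 1.93 ± 0.56 at site 14278 and 1.67 ± 0.74 at site 14793 over w1118. Each was called in 1 or 2 of 7 w1118 pairs and in no RluA-2 pair, where their means were 1.76 to 2.14. At U14748 (nt 169) the CMC ratio was 5.74, 9.87 and 6.21% in Exp 1, 5.40, 5.55, 3.07 and 4.22% in w1118 of Exp 2 and 3.94, 3.66, 3.92 and 3.79% in RluA-2, and every mock ratio was below 2%. These fold changes were in the range of the highest of lrRNA, at a lower coverage, with a mean in the CMC libraries of w1118 of 1193 at site 14745 and 80 at site 14278, against 11349 at U13197 and 86788 at U12839.

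Between the experiments, no position changed in fold change in limma, with 0 higher and 0 lower in Exp 2 of 1056 tested after adjustment over 549385 positions (background 0% in both directions). At an unadjusted p under 0.05, 46 were higher and 20 lower. A fit of this form recovered none of the changes simulated for the genotypes, described below, so that this count of 0 says little. Where only positions with at least 20 terminations and a coverage of 1000 were tested, 0 of 628 passed in either direction, beside 0.0594% higher and 0.117% lower over all 48845.

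RluA-2 was compared with w1118 of Exp 2 in the same way, after each pair was centred on its median over all positions. No position of either rRNA passed, with 0 of 1041 higher and 0 lower in RluA-2 after adjustment over 699880 positions (limma; background 0% in both directions), and 13 higher and 11 lower at an unadjusted p under 0.05. At U12929 the difference was 0.03 ± 0.33 (RluA-2 minus w1118, log2, SE, adjusted p = 0.9996; -0.02 without centring), at U12926 -0.02 ± 0.33 and at U12883 0.20 ± 0.33. In simulated data the same fit recovered 0 of 66 changes of 2 on the log2 scale, so that the count of 0 says little. With at least 20 terminations and a coverage of 1000 required, a setting chosen after seeing the data, the fit recovered 57 of 66 changes of 2 and 20 of 67 changes of 1. Its adjustment in the simulation ran over 3330 positions, against 58459 in the data, and the simulated noise was the same at all positions. Recovery in the data may thus be lower and was not tested. In the data 0 of 529 mitochondrial rRNA positions passed in either direction, while 8 higher and 3 lower passed among all 58459 (0.0137% and 0.00513%).

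By the rule of calls, 19 of the 167 positions called in w1118 were called in no RluA-2 pair (11.4%), beside a background of 17.2% over all 2841 called positions and of 9.34% over cytoplasmic rRNA. The share is near the background and no test of difference lies behind it. Of the 19, 12 were called in just 1 w1118 pair of Exp 2, 16 had a positive mean fold change in RluA-2, and 14 had a lower mean there than in w1118 of Exp 2. The median of the 19 was 0.95 in w1118 of Exp 2 and 0.42 in RluA-2, values that the choice of positions bears on. Within Exp 2, 24 of 1769 positions were called in w1118 and in no RluA-2 pair (1.36%), 19 in RluA-2 and in no w1118 pair (1.07%), and 153 in both (8.65%). Of the 33 positions called in all 7 w1118 pairs, 30 were called in all 4 RluA-2 pairs. Without RluA-2 replicate 3 the count of 19 rises to 41, and without w1118 replicate 1 of Exp 2 it drops to 10.

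**Figure D4:**
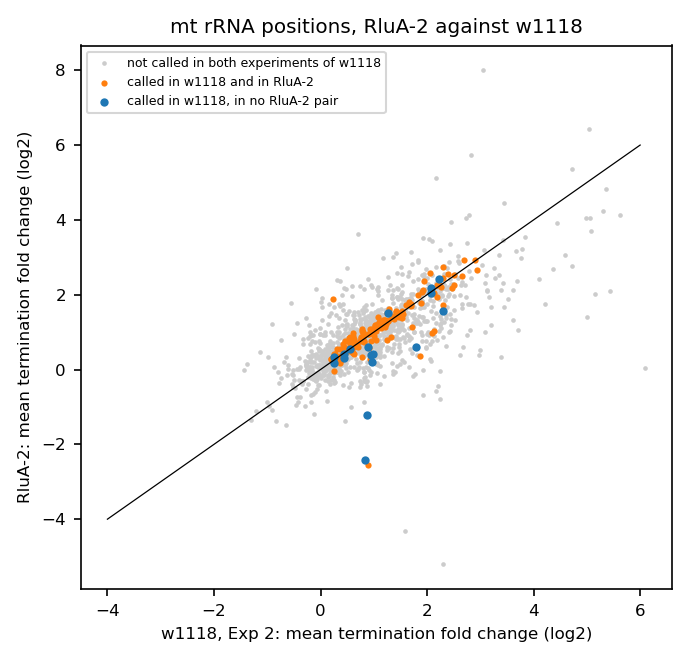
Mean termination fold change (log2) of mitochondrial rRNA positions with a coverage of 100 in every library that lists them, in RluA-2 (4 pairs) against w1118 of Exp 2 (4 pairs), with the line of equality. The 19 positions called in w1118 and in no RluA-2 pair are blue, other called positions orange and the rest grey. Most blue points lie among the orange ones, and the blue points far below the line, A13199 and A13047, each have RluA-2 libraries with very few terminations.

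Of the 10 positions of the 19 with the largest difference, 8 had differences of -0.30 to -1.20, and the 2 others were A13199 and A13047. At A13199 (nt 860) the CMC ratios of RluA-2 were 0.059, 5.57, 0.0533 and 5.28%, against 5.23 to 7.09% in w1118 of Exp 2, so that replicates 1 and 3 fell while 2 and 4 did not. The difference of means was -3.26 on the log2 scale, and -3.21 after centring (limma adjusted p = 0.929). At A13047 (nt 1012) the CMC ratios of RluA-2 were 1.66, 0.0517, 2.61 and 4.10%, against 2.97 to 5.13% in w1118 of Exp 2. A13039, U13509, U13597, U13744, A12994 and sites 13048, 13049 and 13653 made up the rest.

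Such drops occurred in single libraries of all groups. A library was counted as low at a position where it had under 0.1 of the terminations that the median ratio of the 11 libraries of its treatment gives, and where at least 30 were expected. This held for 23 of 6627 CMC values and 32 of 7808 mock values, at 20 and 30 positions, and 9 of the 32 mock values went with a call. At A13358 (nt 701) the mock library of w1118 replicate 4 of Exp 2 had 178 terminations at a coverage of 97764, a ratio of 0.182%, where the other 10 mock libraries had 9.20 to 15.5%. Its fold change of 6.53 stood beside 0.27 to 0.37 in the other 3 pairs of that group. At A12994 and U12995 the mock library of w1118 replicate 2 of Exp 2 had 38 and 74 terminations, where the median ratio gives 1453 and 1967. At U12995 the other 3 pairs of that group had fold changes of 0.81 to 1.14. U13200 was low in the same 2 RluA-2 CMC libraries as A13199, with 33 and 17 terminations. The origin of these drops was not tested.

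In the gene counts of the mock libraries, mt:lrRNA took a larger share in Exp 1 than in Exp 2. It held 6.80, 6.98 and 5.73% of all gene counts in Exp 1, 4.34, 4.12, 3.22 and 3.83% in w1118 of Exp 2, and 4.06, 4.74, 4.71 and 4.85% in RluA-2. mt:srRNA held 0.0922, 0.115 and 0.129%, then 0.0347, 0.0380, 0.0497 and 0.0284%, and in RluA-2 0.0329, 0.0337, 0.0340 and 0.0389%. For both RNAs all mock libraries of Exp 1 were above those of Exp 2, while the genotypes overlapped. In the CMC libraries mt:lrRNA was not higher in Exp 1, with 2.42 to 3.22% beside 2.85 to 4.09% in w1118 of Exp 2 (difference of means -0.40, exact permutation p = 0.4, adjusted 0.48 over 12 tests) and 3.10 to 4.28% in RluA-2. mt:srRNA held 0.0565 to 0.0926% in CMC libraries of Exp 1, 0.0294 to 0.0588% in w1118 of Exp 2 and 0.0307 to 0.0422% in RluA-2. Between the mock libraries of the experiments edgeR gave a log2 difference of 0.79 ± 0.13 (SE) for mt:lrRNA, with an adjusted p of 0.00203, and of 1.61 ± 0.17 for mt:srRNA, with an adjusted p of 0.000171, where 15.4% of 10253 genes were higher in Exp 1 and 17.5% lower. Fewer cells, fewer mitochondria and fewer polyadenylated rRNA copies cannot be told apart in these bulk samples.

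Between the genotypes the difference for mt:lrRNA was 0.28 ± 0.10 (RluA-2 over w1118, log2, edgeR), with an adjusted p of 0.0512, above the threshold of 0.05. DESeq2 gave the same size with an adjusted p of 0.00452. mt:srRNA had -0.07 ± 0.13 (adjusted p = 0.769). Of 10161 genes tested, 11.1% were higher in RluA-2 and 12.6% lower. The ratio of the RNAs, srRNA counts per 100 lrRNA counts, was 0.712 to 0.811 in the mock libraries of RluA-2, 0.741 to 1.55 in w1118 of Exp 2 and 1.36 to 2.25 in Exp 1 (RluA-2 against w1118, exact permutation p = 0.171, adjusted 0.257 over 12 tests).

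**Figure D5:**
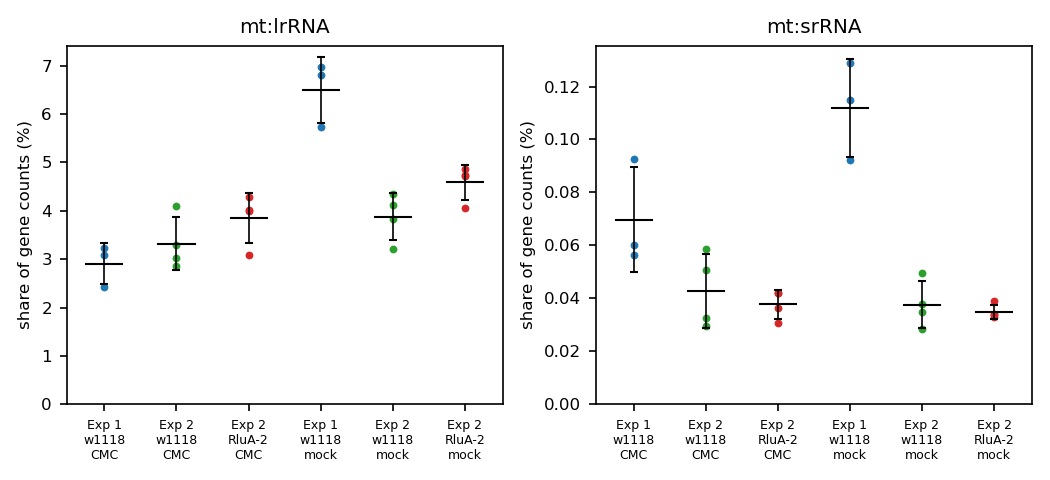
Share of all gene counts (%) that mt:lrRNA (left) and mt:srRNA (right) held in each library, by experiment, genotype and treatment. Points are libraries, horizontal lines means and bars the SD (n = 3 in Exp 1, n = 4 in Exp 2). Mock libraries of Exp 1 hold 5.73 to 6.98% mt:lrRNA, above the 3.22 to 4.85% of the mock libraries of Exp 2.

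The genes that make and decorate these rRNAs were compared through CMC terminations in gene spans (edgeR, 10191 genes, 8.86% higher and 11.8% lower in RluA-2). Of the 13 genes for proteins in the mitochondrial genome 0 passed an adjusted p of 0.05 (median log2 difference 0.10), beside a median of 0.0042 over all genes tested. Of 46 large-subunit mitoribosomal protein genes 4 were higher and 1 lower (median 0.05). mRpL39 had 0.67 ± 0.07 (SE, adjusted p = 2.79e-06), mRpL41 0.50 ± 0.10, mRpL43 0.34 ± 0.10 and mRpL18 0.28 ± 0.09, and mRpL44 had -0.31 ± 0.08 (adjusted p = 0.0155). Of 26 small-subunit genes 1 was higher, mRpS26 with 0.25 ± 0.08 (median of the list 0.06). Of the 13 tested genes of mitochondrial transcription and RNA processing 1 was higher, scu, a subunit of mitochondrial RNase P, with 0.24 ± 0.07 (adjusted p = 0.017). Together 5 of 72 mitoribosomal genes were higher and 1 lower, and no test was made of these shares against the background.

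Of the other pseudouridine synthases measured, RluA-1, another RluA family member, had -0.27 ± 0.05 (adjusted p = 0.00177) and Nop60B, the enzyme of box H/ACA particles, had 0.43 ± 0.09 (adjusted p = 0.00402). RluA-2 itself had -2.26 ± 0.22 (adjusted p = 2.31e-06), as a check of the deletion.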

How the data were processed

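Each of 22 libraries has 2 deposited files, made by the authors. Reads were trimmed (Trimmomatic 0.33) and aligned in steps, by Bowtie2 to cytoplasmic rRNA and the spike-in and by STAR 2.6.1a to the genome, and featureCounts 2.0.0 counted gene hits (from the study's methods and processing notes). The deposited gene values are raw counts. The deposited termination files give the count of inserts ending at a position, its coverage, and the termination ratio as a fraction. Both counts were read as listed with 1 added. The added 1 was taken off here, except in the test of 2 proportions, its read minimum and the spike-in ratios, which used the listed counts. This reading rests on the lowest listed values, 2 for CMC and 1 for mock terminations, and is not stated in the study's methods. Read so, only positions with at least 1 CMC termination are listed, so that positions without one are missing.

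Termination fold changes used 0.5 added to terminations and 1 to coverage. The test of 2 proportions used sqrt(p(1-p)/CMC coverage + 1/mock coverage) as its denominator, with Benjamini-Hochberg adjustment within a pair. limma 3.58.1 was fitted to all positions listed in every pair compared with a mean coverage of at least 100, with each pair centred on its median for the comparison of genotypes, and edgeR 4.0.16 to gene counts (TMM, filterByExpr), with DESeq2 1.42.0 as an alternative, in R 4.3.3. Figures and other values came from Python 3.11.15 with NumPy 2.4.6, pandas 2.3.3 and SciPy 1.17.1. Genes without an identifier here were measured by the CMC terminations in their RefSeq span. These had a median of 0.887 times the gene count over 528 values, each of 1 gene in 1 pair. The values came from the better-counted of the 200 genes with a known identifier. The 95% Wilson intervals of CMC ratios at named lrRNA positions reached a median of 0.252 percentage points to either side. As PCR copies are not separate molecules, they cover counting error alone. The fits were tested on simulated data.

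Named positions were the 10 highest fold changes among those called in all 7 w1118 pairs, the 5 highest called ones of srRNA, Us of the 3 stretches with a known role, the 10 largest differences among those called in no RluA-2 pair, the 5 highest mock ratios, and the 5 highest called positions other than U. U12839, U12883, U13197, U13374, U12933, the run at U13203 and the called srRNA positions were named after their values were seen. The members, lists and tests were chosen with earlier results of these data known. Alternatives covered the variance, thresholds, read minimum, coverage, pseudocount, centring, a replicate block, the count tool and each replicate left out.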

Additional observations from a re-analysis of the deposited data

Results flagged for a closer look

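Among 142 groups of 4 values, 11 held a sample far from the other 3 by Dixon's test at its 95% level, where chance gives about 1 in 20 groups.

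In 4 of them the sample was a library with very few terminations at a position. Fold changes were 6.53 at A13358 in w1118 replicate 4 of Exp 2 (others 0.27 to 0.37), 5.76 at A12994 in w1118 replicate 2 (0.35 to 0.67), 5.63 at U12995 in the same pair (0.81 to 1.14), and -5.59 at A13047 in RluA-2 replicate 2 (-0.39 to 0.67).

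In 5 others the gap was small or at low coverage. The fold change was 1.36 at U12908 in RluA-2 replicate 3 (others 1.17 to 1.19), 1.31 at U12926 in RluA-2 replicate 4 (1.53 to 1.55), 2.05 at A13598 in RluA-2 replicate 1 (1.60 to 1.67) and 0.57 at site 13652 in RluA-2 replicate 3 (0.34 to 0.35). It was 0.34 at site 14793 of srRNA in w1118 replicate 2 of Exp 2 (1.71 to 1.75).

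The median fold change of the Cs of lrRNA was 0.05 in RluA-2 replicate 4 (others 0.27 to 0.28). The share of mt:srRNA in the gene counts was 0.0389% in the mock library of RluA-2 replicate 4 (others 0.0329 to 0.0340%).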

How the results depend on the processing

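The number of mitochondrial rRNA positions called in both experiments was 167. It was 722 with a pooled variance, 97 with 2 pairs of each experiment required, 75 with a fold change above 1 required, 12 after thinning to a coverage of 1000, and 126 to 167 with each w1118 pair left out. The 19 positions called in no RluA-2 pair became 95 with a pooled variance and 7 with 2 w1118 pairs of Exp 2 required, an alternative added after seeing the data, and 10 to 41 with a pair left out. The limma count of 592 positions raised by CMC became 171 after centring, and 532 to 569 with a pair left out. The genotype and experiment counts of 0 stayed 0 in both directions under all alternatives run. The mt:lrRNA difference of 0.28 was 0.284 and past the threshold with DESeq2 and with edgeR on RLE factors, and 0.2013 to 0.3399 with a library left out, past the threshold without w1118 replicate 1 and without RluA-2 replicate 1. The mt:srRNA difference of -0.07 turned to 0.08662 without w1118 replicate 3 (range -0.1846 to 0.08662), and the causes were not tested. With a pair left out, the fold change of U12929 ran from 1.122 to 1.265 (w1118) and from 1.015 to 1.036 (RluA-2).

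Replicate numbers of w1118 and RluA-2 showed no sign of pairing the samples, in a check that counting error at low counts could mask. Same-numbered pairs correlated at 0.0105, 0.0024, -0.0018 and -0.0002 in fold changes, and same-numbered mock libraries at -0.032, -0.045, -0.054 and 0.027 in gene counts. With a replicate block limma called 0 positions in either direction, and edgeR gave 0.2895 for mt:lrRNA and -0.0461 for mt:srRNA. Depth limits srRNA and the 5′ part of lrRNA most.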
